A study of Mus musculus with 10 samples.

Results

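The calcineurin, NFAT and MEF2 genes described here were 10 of the 16112 genes in the count tables. They were taken by name and comprised the calcineurin catalytic subunits Ppp3ca and Ppp3cb, the calcineurin regulators Rcan1 and Rcan2, the NFAT factors Nfatc1, Nfatc2 and Nfatc3, and the MEF2 factors Mef2a, Mef2c and Mef2d. Names were mapped from Ensembl identifiers with the GENCODE M21 annotation of GRCm38, and all 10 genes were measured and tested. RNA was sequenced from whole EDL (3 libraries), psoas (3 libraries) and soleus (4 libraries) muscles of mice that were homozygous wild type and came from a B6C3Fe a/a-Ttnmdm/J colony, aged 32 to 54 days, and tissue was kept in a stabilization solution before extraction. By the labels, 5 libraries came from males and 4 from females, and the sex of the mouse of soleus 3 is not given. The EDL libraries came from mice of 42, 54 and 44 days (replicates 1 to 3), the psoas libraries from mice of 42, 54 and 44 days, and the soleus libraries from mice of 42, 44, 32 and 44 days. EDL and psoas are classed as fast-twitch and soleus as slow-twitch, and the comparisons ask in which genes the muscles differ. Whole muscle also holds connective tissue, vessels and nerve, and in such bulk samples fewer cells of a type and less RNA per cell cannot be told apart.

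Calcineurin is a phosphatase that calcium and calmodulin switch on. It removes phosphates from NFAT proteins, which then enter the nucleus and act on transcription, while kinases such as GSK3 send NFAT back out. MEF2 proteins bind the control regions of many muscle genes and are held in check by class IIa histone deacetylases. In skeletal muscle this signaling is known for its part in slow fiber gene expression, and Rcan proteins bind calcineurin and can inhibit it.

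The libraries held between 12737971 counts (soleus 3) and 50431713 counts (psoas 1). Low-quality bases were trimmed from the reads of EDL 1, EDL 2, psoas 1 and psoas 2, and the other 6 libraries, including all of soleus, were left untrimmed. EDL 3 stood apart from EDL 1 and EDL 2 in several of the genes, and values without it are given beside those genes. It was the only untrimmed EDL library and the only one from a female. Without EDL 3, soleus vs EDL sets untrimmed against trimmed libraries, so that muscle and trimming cannot be told apart there. The labels hold 7 animal codes, 3 of which cover more than 1 muscle: psoas 1 and soleus 1, EDL 3 and soleus 2, and psoas 3 and soleus 4. The labels give EDL and psoas libraries of the same replicate number the same age and sex, and they were of the same trimming class, but no animal code covers both muscles. The labels of the muscles were checked against myosin genes. Myh7, the slow myosin, had a mean of 9824 normalized CPM in soleus, 51.5 in EDL and 6.13 in psoas, and Myh4, the fast 2B myosin, had 1228, 44037 and 53922. EDL 3 stood apart in these genes too: Myh7 was at 7.54, 30.1 and 117 in EDL 1, 2 and 3, and Myh4 at 38374, 38852 and 54886. The slow troponin genes Tnni1 (1.91, 4.47 and 16.8) and Tnnt1 (5.56, 12.3 and 34.2) were highest in EDL 3 as well. Whether fiber content had a part in the other EDL 3 values was not tested. Normalized CPM are counts scaled to the size of each library after TMM normalization.

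Of the 10 genes, the Rcan pair passed the threshold (adjusted p under 0.01 and fold change over 2), each time with the higher level in soleus or, between the fast muscles, in psoas. In psoas vs EDL, 1 of the 10 genes was called (Rcan2), against 2.11% of all genes called and 0.54% called higher in psoas. In soleus vs EDL, 2 of the 10 were called (Rcan1 and Rcan2), against 5.77% of all genes called and 3.59% called higher in soleus. In soleus vs psoas, the same 2 genes were called, against 5.69% of all genes called and 2.99% called higher in soleus. With 10 genes chosen by name, no test of these shares was made. No catalytic subunit, NFAT or MEF2 gene passed both thresholds in the fit of edgeR's quasi-likelihood test, although at an unadjusted p under 0.05 there were 5 of the 10 genes in psoas vs EDL, 6 in soleus vs EDL and 10 in soleus vs psoas. Of all genes, 29%, 35% and 28.4% were under this value in these comparisons. DESeq2's Wald test called 3 genes in psoas vs EDL (Rcan2, Ppp3cb and Mef2d), 2 in soleus vs EDL (Rcan1 and Rcan2) and 4 in soleus vs psoas (Rcan1, Rcan2, Ppp3ca and Ppp3cb), against 6.8%, 9.43% and 8.58% of all genes called by that test. The limma-voom fit with animal as a random effect, which takes up that 3 pairs of libraries share an animal, called the same genes as DESeq2, against 2.48%, 6.54% and 6.24% of all genes.

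The groups did not overlap in normalized CPM for 4 of the 10 genes in psoas vs EDL, where this held for 29.6% of all genes. They did not overlap for 5 of the 10 in soleus vs EDL, where the share of all genes was 29.5%, and for 7 of the 10 in soleus vs psoas, where it was 25.8%. The median log2 fold change of the 10 genes was 0.42 in psoas vs EDL, 0.51 in soleus vs EDL and -0.48 in soleus vs psoas. Over all genes it was 0.01, -0.05 and 0.02.

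**Figure D1:**
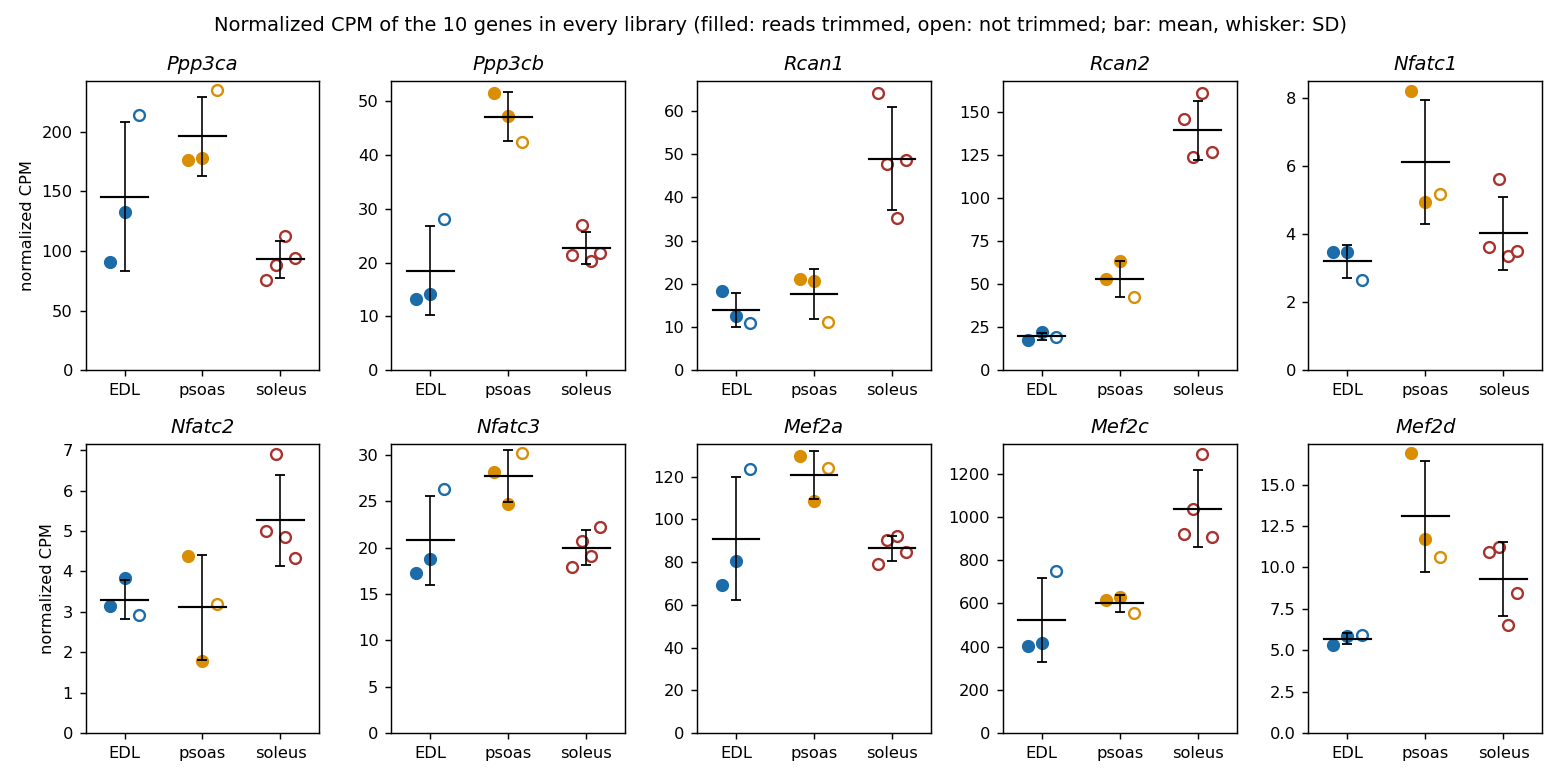
Normalized CPM (vertical axis, from 0) of the 10 genes in every library, grouped by muscle on the horizontal axis. Filled points are libraries with trimmed reads, open points are untrimmed libraries, the bar is the mean and the whisker the SD. Rcan1 and Rcan2 are highest in the 4 soleus libraries, the psoas libraries are highest for Ppp3cb, and EDL 3, the open EDL point, lies above EDL 1 and EDL 2 for Ppp3ca, Ppp3cb, Nfatc3, Mef2a and Mef2c.

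Rcan1 (ENSMUSG00000022951, chr16:92391953-92470867, minus strand, GRCm38) and Rcan2 (ENSMUSG00000039601, chr17:43801351-44039516, plus strand) are protein-coding genes with more than 1 annotated start site. The gene-level counts do not separate transcripts from different starts. The 300-base windows around the start sites in RefSeq (GRCm38.p6), each from 250 bases before the start to 50 after it, are shown for the starts of Rcan1 and for the upstream pair of starts of Rcan2, since these are the genes that differed. Capitals mark GGAAA, the core of NFAT binding sites, read on both strands (TTTCC on the strand shown).
Rcan1, upstream start, chr16:92466120-92466419, minus strand: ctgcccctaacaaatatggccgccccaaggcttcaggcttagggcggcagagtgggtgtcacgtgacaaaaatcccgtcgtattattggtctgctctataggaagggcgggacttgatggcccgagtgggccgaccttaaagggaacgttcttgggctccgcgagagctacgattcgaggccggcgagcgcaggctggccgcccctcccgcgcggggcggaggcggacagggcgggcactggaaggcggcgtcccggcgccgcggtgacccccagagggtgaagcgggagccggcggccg
Rcan1, internal start, chr16:92400029-92400328, minus strand: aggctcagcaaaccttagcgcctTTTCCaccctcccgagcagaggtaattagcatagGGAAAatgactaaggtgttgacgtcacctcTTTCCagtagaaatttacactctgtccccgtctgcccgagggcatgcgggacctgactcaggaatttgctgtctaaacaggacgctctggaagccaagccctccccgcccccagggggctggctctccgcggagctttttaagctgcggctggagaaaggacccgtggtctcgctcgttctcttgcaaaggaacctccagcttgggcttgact
Rcan2, first start, chr17:43801102-43801401, plus strand: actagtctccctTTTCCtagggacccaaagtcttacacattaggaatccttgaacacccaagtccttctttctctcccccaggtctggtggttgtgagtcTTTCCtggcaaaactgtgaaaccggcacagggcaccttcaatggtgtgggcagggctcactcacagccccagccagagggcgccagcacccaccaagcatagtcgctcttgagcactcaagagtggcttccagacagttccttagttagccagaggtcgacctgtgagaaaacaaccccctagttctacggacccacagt
Rcan2, second start, chr17:43801601-43801900, plus strand: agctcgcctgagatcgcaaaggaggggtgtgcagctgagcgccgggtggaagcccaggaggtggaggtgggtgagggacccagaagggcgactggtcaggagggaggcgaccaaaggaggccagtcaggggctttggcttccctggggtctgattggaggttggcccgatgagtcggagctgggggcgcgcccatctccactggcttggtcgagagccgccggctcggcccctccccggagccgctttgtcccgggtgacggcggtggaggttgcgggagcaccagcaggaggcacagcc

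The 2 Rcan1 starts lie 66091 bases apart. The window of the upstream start held 0 matches to GGAAA and that of the internal start held 3, all before the start site. For Rcan2, the first window held 2 matches, the second 0, and the third window (chr17:43952749-43953048), 151647 bases downstream of the first start, held 0. GGAAA is a short motif: 61.3% of the 32851 windows of all genes held at least 1 match and 9.42% held at least 3. The MEF2 consensus motif, searched on both strands, had 0 matches in the Rcan1 and Rcan2 windows, so that no match overlapped another, and it was found in 3.19% of all windows. Over the 15 windows of the 8 members with an entry, 8 held GGAAA and 1, that of Mef2a, held the MEF2 motif. A match is a description of letters and was not tested as a binding site.

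Rcan2 rose in steps from EDL through psoas to soleus. Its levels were 17.8, 22.0 and 19.5 normalized CPM in EDL 1, 2 and 3, 52.9, 63.6 and 42.4 in psoas 1, 2 and 3, and 146, 124, 161 and 127 in soleus 1, 2, 3 and 4. No library of one muscle reached the range of another. Rcan2 was 7.05-fold higher in soleus than in EDL (log2 fold change 2.82 ± 0.19 SE, adjusted p = 2.26e-05). It was 2.63-fold higher in soleus than in psoas (1.39 ± 0.18, adjusted p = 0.000592). Between the fast muscles, it was 2.68-fold higher in psoas than in EDL (1.42 ± 0.19, adjusted p = 0.00268). The call between psoas and EDL was lost without EDL 1 (adjusted p = 0.0177), psoas 1 (0.0102) or psoas 2 (0.0129), with log2 fold changes of 1.32, 1.40 and 1.27, in a fit of these muscles alone (0.0101) and with a replicate block over all libraries (1.42, adjusted p = 0.0106). With the replicate block on EDL and psoas alone it was kept (1.40, adjusted p = 0.00666).

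The Rcan2 difference between psoas and EDL was seen in both classes of read trimming. In these muscles the trimmed libraries came from males and the untrimmed ones from females, so that trimming and sex cannot be told apart. The Rcan2 difference was 2.93-fold among the trimmed libraries (2 against 2, adjusted p = 0.011 in an edgeR fit of these alone). Between the untrimmed libraries psoas 3 and EDL 3 it was 2.18-fold, with 1 library each and so no measure of spread within a muscle. Within animals, soleus 2 had 6.36 times the level of EDL 3, soleus 1 had 2.75 times that of psoas 1 and soleus 4 had 2.99 times that of psoas 3. Among untrimmed libraries alone, the mean of soleus was 7.15 times the level of EDL 3 and 3.29 times that of psoas 3. In a fit of the untrimmed libraries only, the adjusted p of Rcan2 was 0.00765 in soleus vs EDL and 0.0277 in soleus vs psoas.

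Rcan1 rose in soleus against both fast muscles. Its levels were 18.3, 12.5 and 10.8 normalized CPM in EDL 1, 2 and 3, 21.1, 20.7 and 11.05 in psoas 1, 2 and 3, and 64.2, 47.6, 35.2 and 48.7 in soleus 1, 2, 3 and 4. Every soleus library was above every EDL and psoas library, while EDL and psoas overlapped. Rcan1 was 3.52-fold higher in soleus than in EDL (log2 fold change 1.81 ± 0.29 SE, adjusted p = 0.00185). It was 2.77-fold higher in soleus than in psoas (1.47 ± 0.28, adjusted p = 0.00531). In psoas vs EDL, its log2 fold change was 0.35 ± 0.29 (adjusted p = 0.47).

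The Rcan1 calls were lost without some single libraries, in fits in which fewer of all genes were called too, while the direction was kept. The call in soleus vs EDL was lost without EDL 2 (adjusted p = 0.0138). The call in soleus vs psoas was lost without psoas 1 (0.0145), psoas 2 (0.0187), psoas 3 (0.015), soleus 1 (0.0133), soleus 2 (0.0138) or soleus 4 (0.0141), at log2 fold changes from 1.23 to 1.60. The untrimmed fast libraries EDL 3 (10.8) and psoas 3 (11.05) had the lowest levels of their muscles, and against them the soleus mean was 4.52 and 4.43 times higher. In that fit of untrimmed libraries, the adjusted p was 0.0364 in soleus vs EDL and 0.0374 in soleus vs psoas. Within animals, the ratio was 4.40 for soleus 2 over EDL 3, 3.04 for soleus 1 over psoas 1 and 4.41 for soleus 4 over psoas 3.

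**Figure D2:**
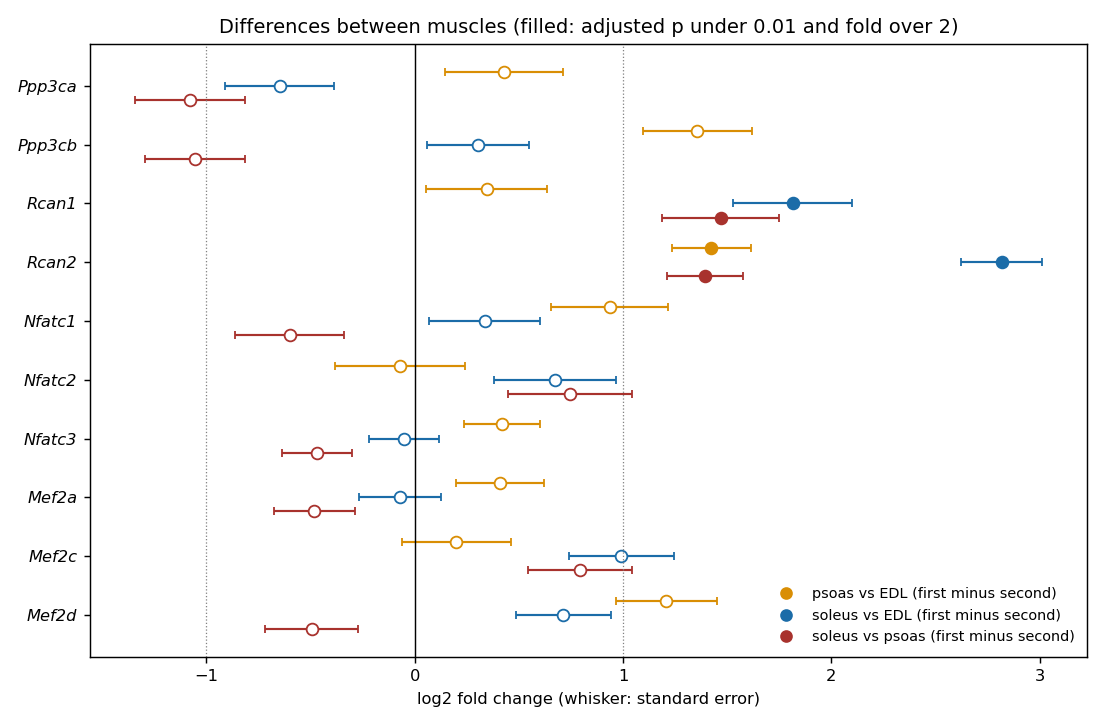
Log2 fold changes (horizontal axis, first muscle minus second) of the 10 genes (vertical axis) in the 3 comparisons, with the standard error as whisker and dotted lines at a 2-fold difference. Filled points, which passed both thresholds, belong to Rcan1 and Rcan2, and the largest is Rcan2 in soleus vs EDL at 2.82.

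Ppp3ca (ENSMUSG00000028161, chr3:136670124-136937727, plus strand) encodes the alpha isoform of the catalytic subunit. Its levels were 90.6, 133 and 214 normalized CPM in EDL 1, 2 and 3, 176, 178 and 235 in psoas 1, 2 and 3, and 76.0, 88.3, 113 and 94.4 in soleus 1, 2, 3 and 4. Every psoas library was above every soleus library, and EDL overlapped both. The log2 fold change was -1.08 ± 0.26 SE in soleus vs psoas (adjusted p = 0.0183), -0.65 ± 0.26 in soleus vs EDL (adjusted p = 0.104) and 0.43 ± 0.28 in psoas vs EDL (adjusted p = 0.343). In 8 of 22 alternatives, the soleus vs psoas difference passed both thresholds, among them the fit without EDL 3 (adjusted p = 0.00427) and limma-voom with animal as a random effect (-1.15 ± 0.24, adjusted p = 0.00719). Without EDL 3, the log2 fold change was 0.81 in psoas vs EDL (adjusted p = 0.035) and -0.27 in soleus vs EDL (adjusted p = 0.382). Psoas had 1.59 times the EDL level among trimmed libraries, and the ratio of psoas 3 to EDL 3, both untrimmed, was 1.10. Within animals, soleus 1 had 0.432 times the level of psoas 1, soleus 4 had 0.402 times that of psoas 3 and soleus 2 had 0.413 times that of EDL 3.

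Ppp3cb (ENSMUSG00000021816, chr14:20499364-20546573, minus strand) encodes the beta isoform. Its levels were 13.3, 14.2 and 28.0 normalized CPM in EDL 1, 2 and 3, 51.5, 47.3 and 42.4 in psoas 1, 2 and 3, and 21.5, 27.0, 20.3 and 21.8 in soleus 1, 2, 3 and 4. The psoas libraries were above all others, and the soleus libraries lay within the range of EDL. In psoas vs EDL, the log2 fold change was 1.36 ± 0.26 SE and the adjusted p of 0.0112 missed the threshold. It passed in 10 of 24 alternatives, among them limma-voom with animal as a random effect (1.47 ± 0.24, adjusted p = 0.00521), and without EDL 3 it was 1.78 with an adjusted p of 0.00064. In soleus vs psoas, the log2 fold change was -1.05 ± 0.24 (adjusted p = 0.013), and the difference passed both thresholds without EDL 3 (adjusted p = 0.000818) and with animal as a random effect (-1.10 ± 0.21, adjusted p = 0.00455). In soleus vs EDL, it was 0.30 ± 0.24 (adjusted p = 0.399), and 0.73 without EDL 3 (adjusted p = 0.00968, below a 2-fold change). The ratio of psoas to EDL was 3.60 among trimmed libraries and 1.51 between psoas 3 and EDL 3, and whether trimming or the mouse had a part in this was not tested.

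Nfatc1 and Nfatc2, which encode NFAT factors, were the lowest of the 10 genes per kilobase of exon in each muscle. Nfatc1 (ENSMUSG00000033016) ranged from 2.64 to 3.48 normalized CPM in EDL, from 4.95 to 8.21 in psoas and from 3.35 to 5.62 in soleus. All psoas libraries were above all EDL libraries, by 0.94 ± 0.28 SE on the log2 scale (adjusted p = 0.0537). Nfatc2 (ENSMUSG00000027544, chr2:168476410-168601657, minus strand) ranged from 2.91 to 3.84 in EDL, from 1.78 to 4.38 in psoas and from 4.33 to 6.91 in soleus. The soleus libraries did not overlap those of EDL, and its log2 fold change was 0.68 ± 0.29 in soleus vs EDL (adjusted p = 0.126) and 0.75 ± 0.30 in soleus vs psoas (adjusted p = 0.124). These values rest on few reads, since raw counts went down to 42 for Nfatc1 and 28 for Nfatc2.

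Nfatc3 (ENSMUSG00000031902, chr8:106058840-106130537, plus strand) had the highest level of the NFAT genes. It ranged from 17.3 to 26.3 normalized CPM in EDL, from 24.7 to 30.2 in psoas and from 17.9 to 22.3 in soleus. Psoas and soleus did not overlap, and soleus vs psoas gave -0.47 ± 0.17 SE on the log2 scale (adjusted p = 0.0908). In soleus vs EDL, it was -0.05 ± 0.17 (adjusted p = 0.852), and 0.15 without EDL 3. Psoas vs EDL gave 0.42 ± 0.18 (adjusted p = 0.152), and 0.62 without EDL 3 (adjusted p = 0.0215). Psoas had 1.47 times the EDL level among trimmed libraries, and the ratio of psoas 3 to EDL 3, both untrimmed, was 1.15.

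Mef2c (ENSMUSG00000005583, chr13:83504034-83667080, plus strand) had the highest level of the 10 genes in every muscle. Its levels were 401, 419 and 748 normalized CPM in EDL 1, 2 and 3, 617, 630.1 and 554 in psoas 1, 2 and 3, and 920.1, 1039, 1292 and 909 in soleus 1, 2, 3 and 4. All soleus libraries were above all others, and EDL and psoas overlapped. The log2 fold change was 0.99 ± 0.25 SE in soleus vs EDL (adjusted p = 0.0193) and 0.79 ± 0.25 in soleus vs psoas (adjusted p = 0.0545). Without EDL 3, soleus vs EDL passed both thresholds at 1.342 (adjusted p = 0.00176), which it did in only 1 of 22 alternatives. Over these alternatives, its log2 fold change ranged from 0.427 to 1.342. Among untrimmed libraries, the soleus mean was 1.39 times the level of EDL 3. For psoas vs EDL, the log2 fold change was 0.20 ± 0.26 (adjusted p = 0.663), and 0.55 without EDL 3 (adjusted p = 0.0829). Psoas had 1.52 times the EDL level among trimmed libraries, and the ratio of psoas 3 to EDL 3, both untrimmed, was 0.740. Soleus 2 had 1.39 times the level of EDL 3, from the same animal, soleus 1 had 1.49 times that of psoas 1 and soleus 4 had 1.64 times that of psoas 3.

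Mef2d (ENSMUSG00000001419, chr3:88142372-88172086, plus strand) was lowest in EDL. Its levels were 5.30, 5.84 and 5.93 normalized CPM in EDL 1, 2 and 3, 16.9, 11.7 and 10.6 in psoas 1, 2 and 3, and 10.9, 11.2, 6.54 and 8.45 in soleus 1, 2, 3 and 4. The EDL libraries were below all others, while psoas and soleus overlapped. The log2 fold change was 1.21 ± 0.24 SE in psoas vs EDL (adjusted p = 0.0124), 0.71 ± 0.23 in soleus vs EDL (adjusted p = 0.0498) and -0.49 ± 0.22 in soleus vs psoas (adjusted p = 0.168). In psoas vs EDL it passed both thresholds in 4 of 24 alternatives, among them limma-voom with animal as a random effect (1.23 ± 0.22, adjusted p = 0.00816). Exons of an antisense gene cover 8.87% of its exon bases, those of Lysmd4 2.06% of Mef2a and those of Esrp2 1.87% of Nfatc3, all on the opposite strand. Whether the counting used strand is not given in the sources used here.

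Mef2a (ENSMUSG00000030557, chr7:67231163-67372858, minus strand) ranged from 69.1 to 124 normalized CPM in EDL, from 108 to 130 in psoas and from 79.0 to 92.1 in soleus. Psoas and soleus did not overlap, and soleus vs psoas gave -0.48 ± 0.20 SE on the log2 scale (adjusted p = 0.129). In soleus vs EDL, the log2 fold change was -0.07 ± 0.20 (adjusted p = 0.821), and 0.21 without EDL 3. Psoas vs EDL gave 0.41 ± 0.21 (adjusted p = 0.222), and 0.69 without EDL 3 (adjusted p = 0.0142). Psoas had 1.59 times the EDL level among trimmed libraries, and the ratio of psoas 3 to EDL 3, both untrimmed, was 1.01.

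Between genes, levels were compared as normalized CPM per kilobase of exon. Mef2c led in each muscle, with 66.2 ± 11.3 (SD, n = 4) in soleus, 38.2 ± 2.59 (n = 3) in psoas and 33.3 ± 12.4 (n = 3) in EDL. Ppp3ca came next in EDL (14.6 ± 6.28) and in psoas (19.7 ± 3.34). In soleus, Rcan2 (31.9 ± 3.96) and Rcan1 (15.9 ± 3.85) stood above Ppp3ca (9.31 ± 1.54), with no overlap between neighbours in this order. In EDL, Rcan2 (4.52 ± 0.483) and Rcan1 (4.50 ± 1.26) overlapped and stood below Ppp3ca and Mef2a (6.20 ± 1.96), although Mef2a and Rcan2 overlapped too. In psoas, Rcan2 (12.1 ± 2.42) stood between Ppp3ca and Mef2a (8.23 ± 0.758) without overlap, while Rcan1 (5.71 ± 1.85) overlapped Ppp3cb (5.34 ± 0.518). Nfatc2 was last in each muscle, with 0.312 ± 0.0458 in EDL, 0.294 ± 0.123 in psoas and 0.499 ± 0.107 in soleus, and overlapped Nfatc1 in EDL and soleus.

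The sum of Rcan1 and Rcan2 over the sum of Ppp3ca and Ppp3cb, both per kilobase, was formed after these levels were seen and is given with no test. It was 0.944, 0.61 and 0.324 in EDL 1, 2 and 3, 0.807, 0.916 and 0.469 in psoas 1, 2 and 3, and 5.39, 3.68, 3.54 and 3.75 in soleus 1, 2, 3 and 4. Each soleus library held more RNA of the Rcan pair than of this catalytic pair on this scale, and each EDL and psoas library held less.

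Within families, shares of the level per kilobase showed which gene led. Mef2c made up 89.7% ± 1.36 (SD, n = 4) of the MEF2 level in soleus, 82.0% ± 1.49 (n = 3) in EDL and 78.6% ± 2.21 (n = 3) in psoas. Nfatc3 made up 64.5% ± 8.91 of the NFAT level in EDL, 66.9% ± 5.68 in psoas and 60.3% ± 5.39 in soleus, with Nfatc4 counted in the total. Ppp3ca made up 65.6% ± 5.82 of the catalytic level in EDL, 63.9% ± 6.21 in psoas and 50.7% ± 4.85 in soleus, and the soleus libraries did not reach the range of the others. Ppp3cc, the third catalytic gene and no member of the 10, made up 24.9% ± 6.53, 18.5% ± 4.04 and 35.0% ± 5.13. Rcan3 made up no more than 4.998% of the Rcan level in any library.

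**Figure D3:**
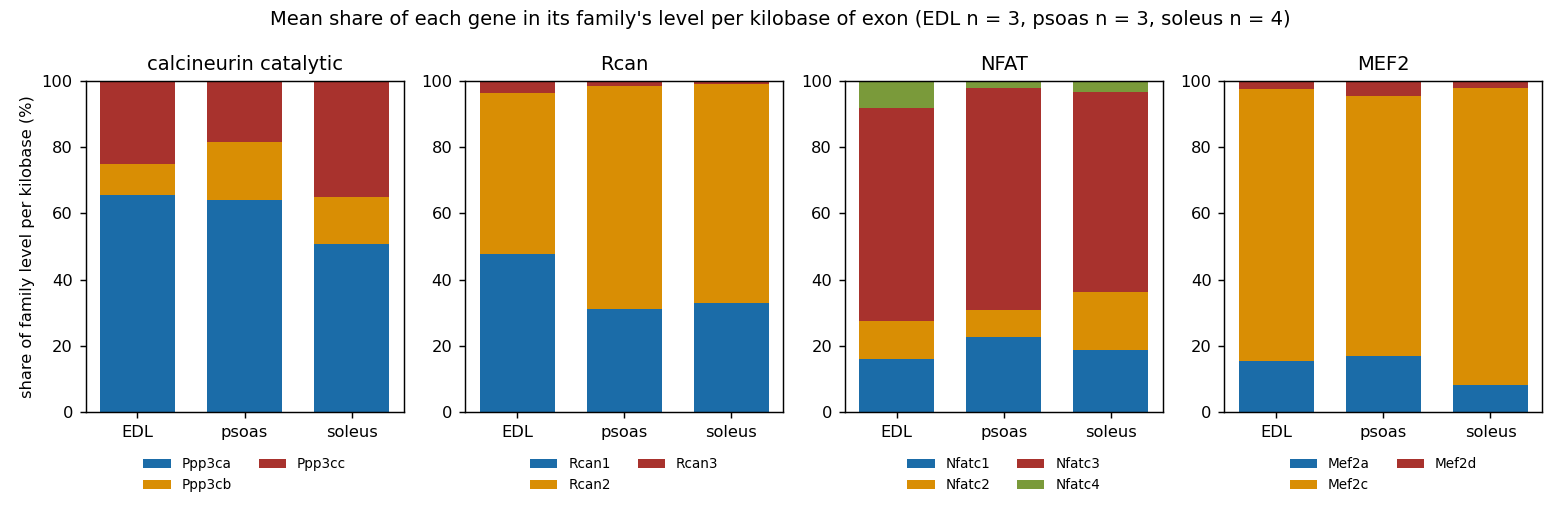
Mean share (vertical axis, percent) of each gene in its family's summed level per kilobase of exon, by muscle (horizontal axis), for the calcineurin catalytic subunits, the Rcan genes, the NFAT genes and the MEF2 genes. The Mef2c share is largest in soleus (89.7%), and the Rcan1 and Rcan2 shares are close to equal in EDL (47.6% and 48.8%).

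Ratios of paralogs within a library do not depend on the scaling between libraries. The 6 ratios were compared in 18 exact two-sided permutation tests, in which p cannot go below 0.1 for 3 against 3 libraries or 0.0571 for 4 against 3, so that none could pass 0.05. Mef2c over Mef2a per kilobase was 11.1 in soleus, 5.31 in EDL and 4.65 in psoas (geometric means), and soleus did not overlap EDL or psoas. The difference was 2.098-fold against EDL and 2.40-fold against psoas (exact permutation p = 0.0571 in both, adjusted p = 0.206). Ppp3ca over Ppp3cb was 6.94 in EDL, 3.65 in psoas and 3.60 in soleus, and EDL did not overlap psoas (exact permutation p = 0.1, adjusted p = 0.225) or soleus (exact permutation p = 0.0571, adjusted p = 0.206). Rcan1 over Rcan2 was 0.975 in EDL, 0.459 in psoas and 0.489 in soleus, again with EDL apart from psoas (exact permutation p = 0.1) and from soleus (exact permutation p = 0.0571).

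Nfatc2 over Nfatc3 was 0.29 in soleus and 0.118 in psoas, with no overlap (exact permutation p = 0.0571, adjusted p = 0.206), and 0.179 in EDL. Mef2d over Mef2a was 0.261 in psoas and 0.158 in EDL, with no overlap (exact permutation p = 0.1, adjusted p = 0.225), and 0.259 in soleus. Nfatc1 over Nfatc3 overlapped in the 3 comparisons, at 0.244 in EDL, 0.339 in psoas and 0.311 in soleus.

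**Figure D4:**
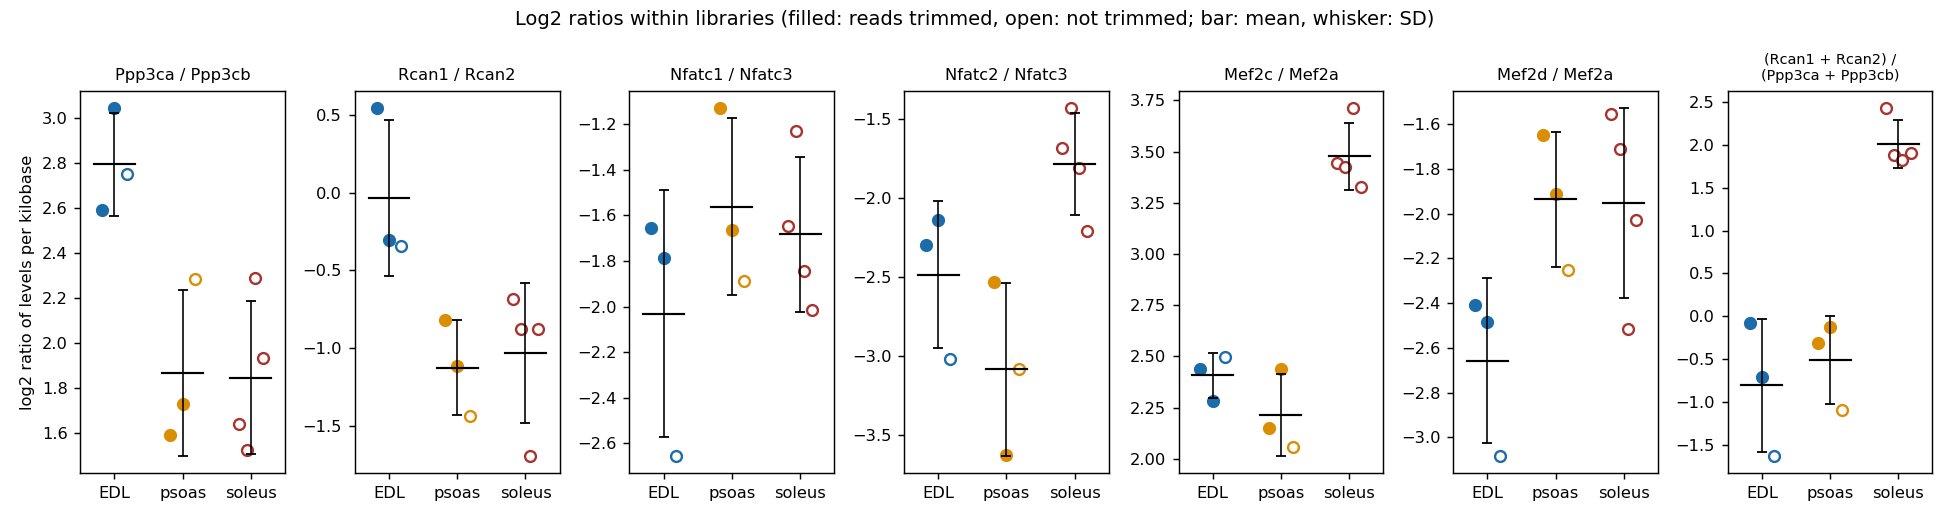
Log2 ratios of paralogs per kilobase within each library (vertical axis, a scale of its own in each panel) by muscle, and at the right the log2 of summed Rcan1 and Rcan2 over summed Ppp3ca and Ppp3cb. Filled points are trimmed and open points untrimmed libraries, with mean and SD. The soleus libraries lie apart from the others in Mef2c over Mef2a and in the Rcan to catalytic ratio, and the EDL libraries in Ppp3ca over Ppp3cb and Rcan1 over Rcan2.

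Other genes of the pathway were read from the same fit, in lists chosen with earlier results of these data known and not tested as sets. Of all genes, 2.11% were called in psoas vs EDL, 5.77% in soleus vs EDL and 5.69% in soleus vs psoas. Their median log2 fold changes were 0.01, -0.05 and 0.02. Of 11 measured calcineurin subunits and binding proteins, 1 was called in psoas vs EDL, 3 in soleus vs EDL and 5 in soleus vs psoas, with median log2 fold changes of 0.05, 0.22 and 0.19. Myoz2 and Myoz1 encode calsarcins, which tether calcineurin at the Z-disc. Myoz2 had a mean of 699 ± 96.3 normalized CPM (SD, n = 4) in soleus, 37.5 ± 8.02 (n = 3) in EDL and 28.0 ± 24.02 (n = 3) in psoas, and rose in soleus by 4.22 against EDL (adjusted p = 0.000545) and 4.65 against psoas (adjusted p = 0.000358) on the log2 scale. Myoz1 fell, from 859 ± 103 in EDL and 1206 ± 102 in psoas to 275 ± 95.7 in soleus, with log2 fold changes of -1.64 (adjusted p = 0.00132) and -2.13 (adjusted p = 0.000307).

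Lmcd1, a LIM domain protein, rose in soleus, with log2 fold changes of 1.36 against EDL (adjusted p = 0.00582) and 1.91 against psoas (adjusted p = 0.000997). Ppp3r1, the regulatory B subunit of calcineurin, fell in soleus vs psoas by 1.07 on the log2 scale (adjusted p = 0.000797), from 81.9 ± 2.97 normalized CPM (SD, n = 3) to 39.0 ± 2.15 (n = 4). Ppp3ca and Ppp3cb pointed the same way in that comparison without passing the threshold. Chp2, a calcineurin B homologous protein, was lower in psoas than in EDL (-1.45, adjusted p = 0.00615) and than in soleus (1.37 for soleus vs psoas, adjusted p = 0.00273), at a mean of 1.43 normalized CPM in psoas.

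Calmodulin and its kinases were lower in soleus where they were called. Of 12 measured genes, 0 were called in psoas vs EDL by edgeR (5 at an unadjusted p under 0.05, 1 by DESeq2, 0 by limma-voom), 2 fell in soleus vs EDL and 4 in soleus vs psoas. Camk2a, the alpha isoform of the calmodulin-dependent kinase II, had 10.5 ± 0.976 normalized CPM (SD, n = 4) in soleus, 31.4 ± 3.79 (n = 3) in EDL and 68.3 ± 29.8 (n = 3) in psoas. Its log2 fold change was -1.58 in soleus vs EDL (adjusted p = 0.00146) and -2.71 in soleus vs psoas (adjusted p = 8.87e-05). Calm3, a calmodulin gene, fell in both comparisons, by 1.16 (adjusted p = 0.00357) and 1.28 (adjusted p = 0.00197) on the log2 scale. Calm2 (-1.18, adjusted p = 0.000429) and Camk2g (-1.20, adjusted p = 0.00334) were called in soleus vs psoas. Camk2b went the other way without a call, at 33.1 ± 8.26 in soleus, 15.7 ± 8.04 in EDL and 23.0 ± 2.04 in psoas. The median log2 fold change of the list was -0.00594 in psoas vs EDL, -0.532 in soleus vs EDL and -0.195 in soleus vs psoas.

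Of 7 further NFAT genes and NFAT kinases, 1 was called in soleus vs EDL and 0 in psoas vs EDL (5 at an unadjusted p under 0.05, 1 by DESeq2, 0 by limma-voom) and soleus vs psoas (2 at an unadjusted p under 0.05, 0 by DESeq2 and limma-voom) by edgeR. This was Gsk3b, an NFAT kinase, which had 16.5 ± 1.96 normalized CPM in EDL and 40.2 ± 6.46 in soleus (log2 fold change 1.29, adjusted p = 0.00104). Of 10 measured MEF2 regulators, 1 was called in psoas vs EDL, 3 in soleus vs EDL and 1 in soleus vs psoas, each higher in the first muscle. Vgll2, a muscle cofactor of TEAD factors that also binds MEF2, rose by 1.42 in psoas vs EDL (adjusted p = 0.00416) and by 2.16 in soleus vs EDL (adjusted p = 0.000123). The class IIa deacetylase gene Hdac9 was higher in soleus than in EDL (1.27, adjusted p = 0.00625) and psoas (1.69, adjusted p = 0.00158), and Hdac5 was higher in soleus than in EDL (1.004, adjusted p = 0.00409).

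Of 12 genes known as targets of calcineurin, NFAT or MEF2, 0 were called in psoas vs EDL by edgeR (9 at an unadjusted p under 0.05, 2 by DESeq2, 0 by limma-voom), 6 rose in soleus vs EDL, and 5 rose and 2 fell in soleus vs psoas. The median log2 fold change of the list was 0.57, 1.19 and 0.52. The slow contractile genes Myh7, Tnni1 and Tnnt1 had log2 fold changes of 7.58, 7.22 and 7.12 in soleus vs EDL and of 10.7, 9.80 and 9.57 in soleus vs psoas. Myoglobin (Mb) was higher by 2.05 and 1.76, and Xirp1, a gene of the intercalated disc and muscle attachment sites, by 1.94 and 1.27. Myh2, the 2A myosin, was higher in soleus vs EDL (1.97, adjusted p = 0.00467). The nuclear receptor gene Nr4a1 (-2.47, adjusted p = 0.000839) and the muscle creatine kinase Ckm (-1.60, adjusted p = 0.0025) were lower in soleus vs psoas.

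**Figure D5:**
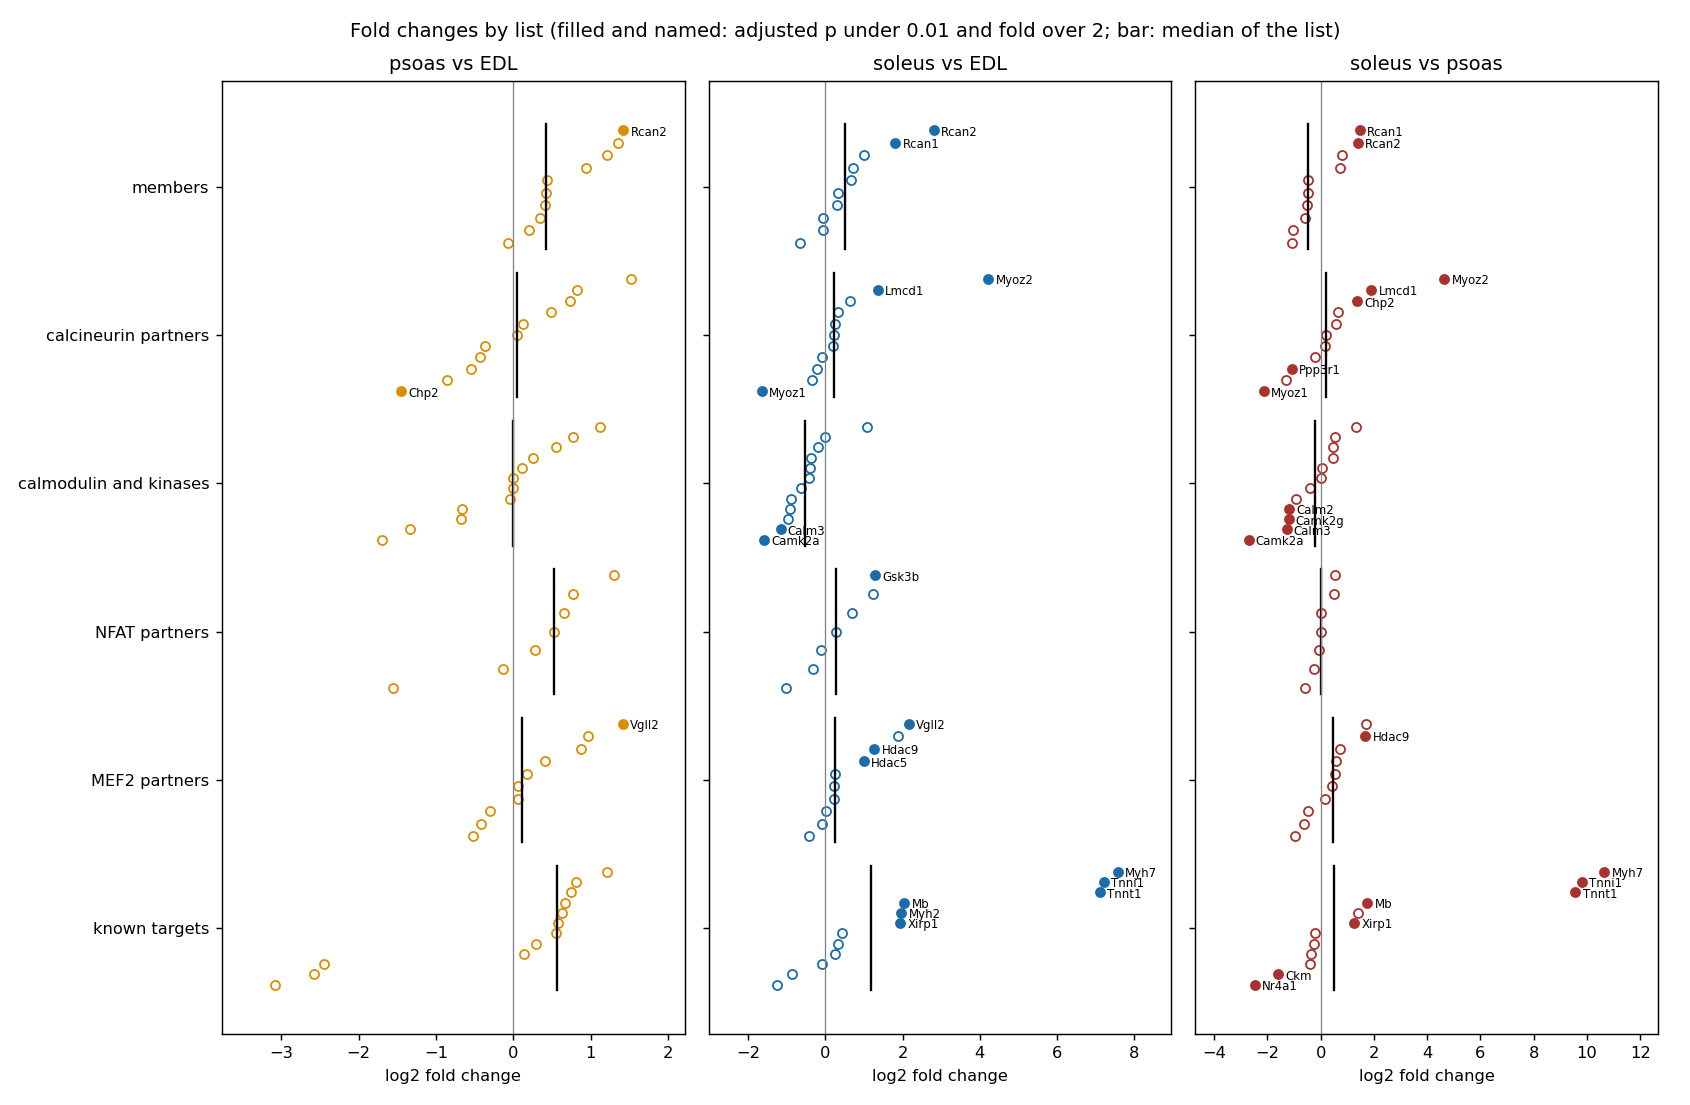
Log2 fold changes (horizontal axis) of the 10 genes and of 5 lists of related genes (vertical axis) in the 3 comparisons. Each point is a gene, filled and named points passed both thresholds, and the bar is the median of the list. The largest values are those of Myh7, at 7.58 in soleus vs EDL and 10.7 in soleus vs psoas, and the called calmodulin and kinase genes all lie below 0.

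The genes whose levels followed the called members most closely were sought among 8311 genes with a symbol and a mean of at least 5 normalized CPM. For Rcan1, these were Pgls, Vamp8 and Mgll, with Pearson correlations of 0.948, 0.943 and 0.941 over the 10 libraries on the log2 scale. For Rcan2, they were Hsdl2, Gm7895 and Esrrg, with 0.980, 0.978 and 0.977. Esrrg, the estrogen-related receptor gamma, had means of 2.41, 6.87 and 29.0 normalized CPM in EDL, psoas and soleus, in the same order as Rcan2. The points share the 3 muscles and their libraries, and no test was made.

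By edgeR, markers of tendon, fibroblasts, macrophages and skeletal muscle fibers were called between muscles. Those of endothelium, adipocytes, Schwann cells, smooth muscle and satellite cells were not. The share of all genes called was 2.11% in psoas vs EDL, 5.77% in soleus vs EDL and 5.69% in soleus vs psoas. All 5 tendon markers were called lower in psoas than in EDL, 4 of the 5 were called higher in soleus than in psoas, and their summed level was 464 to 500.2 normalized CPM in EDL, 26.7 to 68.9 in psoas and 77.0 to 346 in soleus. Of 6 fibroblast markers, 2 were called lower in psoas and 3 lower in soleus against EDL, with sums of 1900 to 3400 in EDL, 598 to 910 in psoas and 603 to 1220.3 in soleus. Of 6 macrophage markers, 1 was called lower than in EDL in psoas and in soleus. Of 6 endothelial markers, 0 were called in any comparison by edgeR, DESeq2 or limma-voom (5, 2 and 1 at an unadjusted p under 0.05 in psoas vs EDL, soleus vs EDL and soleus vs psoas), with sums of 129 to 223, 122 to 132 and 150 to 174. The 4 adipocyte markers had sums of 2.99 to 9.50 in EDL, 2.55 to 14.2 in psoas and 11.3 to 44.7 in soleus, with 1 of them at 0 in a psoas library. By edgeR 0 of these were called, by DESeq2 2 in soleus vs EDL and 2 in soleus vs psoas, and 4 and 3 had an unadjusted p under 0.05. For Schwann cell, smooth muscle and satellite cell markers, 0 were called in any comparison by edgeR, DESeq2 or limma-voom, with up to 1, 2 and 3 at an unadjusted p under 0.05 in a comparison. The T cell markers were not among the 16112 genes analysed here. The summed level of 9 fiber genes was 100805 to 133885 in EDL, 154253 to 183649 in psoas and 100235 to 120440 in soleus, and none was at 0 in any library. Of these 9, edgeR called 3 higher and 1 lower in soleus vs EDL, and 1 higher and 2 lower in soleus vs psoas. In psoas vs EDL it called 0 (5 at an unadjusted p under 0.05, 2 by DESeq2, 1 by limma-voom). The part of these differences in the results for the 10 genes was not tested.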

How the data were processed

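Whole muscle RNA of 3 EDL, 3 psoas and 4 soleus samples was sequenced as stranded, ribosomal RNA-depleted libraries. According to the paper's methods and the submitters' processing notes, reads were checked with FastQC, low-quality libraries were trimmed with Trimmomatic 0.32, and reads were aligned with TopHat2 2.1.1 to mm10 (GRCm38.p4). The authors deposited raw counts per gene, without normalization, keeping genes that reached 10 reads in 3 or more samples. The handling of multiply aligned reads and the strand setting are not given in the sources used here. Sequencing used several runs, and the run of each library is not given there either. The run proxy covariate was formed from trimming and age alone: trimmed, untrimmed at 44 days, and untrimmed at other ages. It is no record of the run.

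The counts were compared with edgeR 4.0.16 (R 4.3.3): TMM scaling, 1 quasi-likelihood fit of 3 muscles over 10 libraries, no covariate, and Benjamini-Hochberg adjustment over 16112 genes. The thresholds for a call were 0.01 for the adjusted p and 2 for the fold change. The SE given with edgeR values, also in the figure, was derived from the test. It is the absolute log2 fold change over the square root of the F statistic. For limma-voom, the SE is that of the fit. The script was tested on simulated data. Levels per kilobase used exon lengths of GENCODE M21, and ratios a pseudocount of 0.5 counts. Python 3.11.15 and scipy 1.17.1 made the tables. Replicates are libraries of separate samples, some from the same animal, so that p-values measure the spread between these samples. At these depths, 1 count was 0.0188 to 0.0797 normalized CPM, which is the step of the scale and no measure of error.

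The members and gene lists were chosen with earlier results of these data known. The named genes are the 10 members, list genes called in at least 1 comparison, and, for each called member, the 3 genes with the highest correlation. Alternatives were DESeq2 1.42.0, limma 3.58.1 with animal as a random effect, other scalings, filters, covariates and thresholds, thinned counts, and fits without each library. Fits of the trimmed and of the untrimmed libraries were added after seeing the data. The paper gives fewer mice than the labels give animal codes, and some codes may therefore share a mouse.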

Additional observations from a re-analysis of the deposited data

Results flagged for a closer look

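The level of Nfatc1 in soleus 2, 5.62 normalized CPM, lay far above those of the other 3 soleus libraries, the next of which was at 3.63, past Dixon's critical value for 4 libraries. Chance flags about 1 in 20 such groups, and 16 groups of soleus values were examined (10 levels and 6 ratios). Without soleus 2, the log2 fold change of Nfatc1 was 0.12 in soleus vs EDL (adjusted p = 0.776) and -0.82 in soleus vs psoas (adjusted p = 0.0698), against 0.34 and -0.60 with it.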

How the results depend on the processing

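The direction of the Rcan2 and Rcan1 differences against soleus was kept in all alternatives run. Rcan2 in soleus vs EDL was called in 22 of 22 alternatives, Rcan2 in soleus vs psoas in 21 of 22, Rcan1 in soleus vs EDL in 20 of 22, Rcan2 in psoas vs EDL in 17 of 24 and Rcan1 in soleus vs psoas in 15 of 22.

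The number of the 10 genes called in psoas vs EDL (1 as reported) was 3 with DESeq2's Wald test, limma-voom, the sex covariate without soleus 3 and an adjusted p under 0.05. It was 2 with DESeq2 size factors, upper-quartile scaling, the 1 CPM filter, the read trimming covariate and the run proxy covariate. It was 0 in the edgeR fit of the 2 muscles alone (4 at an unadjusted p under 0.05) and in that of untrimmed libraries (1 at an unadjusted p under 0.05). In soleus vs psoas (2 as reported) it was 4 with DESeq2, limma-voom, the 2 muscles alone and an adjusted p under 0.05, and 0 with untrimmed libraries (7 at an unadjusted p under 0.05). In soleus vs EDL (2 as reported) it was 1 with untrimmed libraries. Without single libraries, it ranged from 0 to 2, from 1 to 3 (soleus vs EDL) and from 1 to 4 (soleus vs psoas).

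Over all genes (340, 929 and 917 called in psoas vs EDL, soleus vs EDL and soleus vs psoas), the calls were 1095, 1520 and 1382 with DESeq2, 605, 371 and 566 with the trimming covariate, 757, 251 and 475 with the run proxy, 0, 48 and 33 with untrimmed libraries, and 1233, 1853 and 1563 at an adjusted p under 0.05. In psoas vs EDL they were 153 with the 2 muscles alone, 865 with the sex covariate, 178 with thinned counts and 159 with trimmed libraries. Without single libraries they ranged from 61 (without psoas 2) to 963 (without EDL 3), from 385 (without EDL 1) to 1511 (without EDL 3) and from 493 (without psoas 2) to 964 (without EDL 3). The cause was not tested.

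Replicate numbers are shared between muscles, and same-numbered EDL and psoas libraries match in age, sex and trimming class. No animal code covers both muscles, and the numbers were not taken to pair the samples. The correlations of deviations of these libraries were 0.255, 0.0629 and 0.552. They overlap those of libraries from the same animal and cannot decide the pairing. The correlations within the pairs from the same animal were 0.409 (psoas 1 and soleus 1), 0.253 (EDL 3 and soleus 2) and 0.496 (psoas 3 and soleus 4). With a replicate block, 0 of the 10 genes were called in psoas vs EDL (6 at an unadjusted p under 0.05, 1 called with the block on EDL and psoas alone), and 146, 586 and 539 of all genes in the 3 comparisons.

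The differences that turned direction were not called in the fit of all 10 libraries. Among untrimmed libraries, EDL and psoas had 1 library each, so only effect sizes are given there. With untrimmed libraries, Ppp3cb in soleus vs EDL was -0.35, and in psoas vs EDL Rcan1 was -0.00724, Nfatc2 0.0931, Mef2a -0.0295 and Mef2c -0.47 on the log2 scale. Without single libraries, Nfatc2 in psoas vs EDL ranged from -0.45 to 0.20, Nfatc3 in soleus vs EDL from -0.22 to 0.15 and Mef2a in soleus vs EDL from -0.29 to 0.21. The log2 ratios in soleus vs psoas ranged, without single libraries, from -0.17 to 0.19 for Ppp3ca to Ppp3cb, from -0.0623 to 0.31 for Rcan1 to Rcan2, from -0.29 to 0.0933 for Nfatc1 to Nfatc3 (0.21 with untrimmed libraries) and from -0.17 to 0.17 for Mef2d to Mef2a (0.30 with untrimmed libraries). Where 1 library was left in a muscle, it was assumed to vary like the others. Raw counts of the NFAT genes were lowest for Nfatc2 (from 28) and Nfatc1 (from 42), against 239 to 1069 for Nfatc3, and no power calculation was made.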
